A study of Mus musculus with 9 samples.

Results

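The ADAM, ADAMTS and ADAMTSL genes were taken as all protein-coding genes whose symbol starts with Adam, Adamts or Adamtsl followed by a digit. The rule found 57 genes among 55401 gene IDs, 21897 of them protein coding: 33 ADAM, 19 ADAMTS and 5 ADAMTSL genes. The rule used names and not measured values, but it was set with earlier results of these data known. Of the 57, 27 had a mean of at least 0.5 CPM (the reads of a gene scaled to the size of its library) in 1 of the groups and are described one by one, 31 had enough reads for the test, and 13 had no read in any library. Just inside the 0.5 CPM threshold stood Adam5, with a highest group mean of 0.524 CPM, and just outside it Adam4, with 0.464 CPM.

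The data are counts of poly(A) RNA from NP53, a mouse cell line that the labels call a diffuse midline glioma (DMG) tumor line, grown in medium with serum. Gcontrol is the wild-type line, and G1C7 and G2C9 are derivatives of it labelled as knockouts of TIM-3, the product of Havcr2. Each group had 3 libraries, with between 50110129 and 56035382 reads in genes per library. The labels do not say whether libraries of a group came from separate cultures, how the knockouts were made or whether each derivative is 1 clone, so each p-value rests on library-to-library spread alone, which may be technical.

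ADAM proteins are membrane-anchored proteases with a disintegrin domain, and many of them cut the outer part off other membrane proteins, a process called ectodomain shedding that releases growth factors, cytokines and adhesion molecules. ADAMTS proteins are secreted relatives with thrombospondin repeats that process collagen precursors and cut large proteoglycans of the extracellular matrix, and the ADAMTS-like (ADAMTSL) proteins share those repeats but lack the protease domain. In the brain, sheddases act on Notch receptors, the amyloid precursor protein and TIM-3 itself, and ADAMTS proteases remodel a matrix rich in chondroitin sulfate proteoglycans.

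The protease domain of both families holds a zinc-binding stretch of 11 codons in which the first codon, the fifth and the last encode histidine and the second encodes glutamate. A search of the longest GENCODE vM21 coding sequence of each member, with glycine, asparagine or serine allowed at the eighth codon, found this stretch in 20 of 33 ADAM genes, in 19 of 19 ADAMTS genes and in 0 of 5 ADAMTSL genes. The described ADAM genes without it were Adam22, Adam11 and Adam5. All 20 ADAM genes with the stretch had glycine at the eighth codon, whereas the ADAMTS genes had glycine in 13, asparagine in 5 and serine in 1, Adamts8. The 33 coding bases are shown for members whose RNA level differed between the groups, 5′ to 3′ on the coding strand, with the histidine codons in capitals.
Adam9: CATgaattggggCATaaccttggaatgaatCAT
Adam17: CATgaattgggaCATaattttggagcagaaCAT
Adam19: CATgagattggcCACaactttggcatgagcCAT
Adam12: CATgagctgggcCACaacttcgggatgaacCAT
Adam8: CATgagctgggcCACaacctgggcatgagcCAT
Adamts2: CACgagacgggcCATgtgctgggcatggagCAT
Adamts3: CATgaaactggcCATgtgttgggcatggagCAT
Adamts14: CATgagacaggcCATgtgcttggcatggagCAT
Adamts9: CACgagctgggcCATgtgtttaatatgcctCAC
The Adam8 stretch lies at chr7:139987893-139987925 on the minus strand of GRCm38, in exon 11 of 24, and that of Adam12 at chr7:133961158-133961190, minus strand, in exon 11 of 23. The Adamts2 stretch is spliced from exons 7 and 8 of 22 on the plus strand (chr11:50775403-50776134, intron included), and the Adamts3 stretch from exons 8 and 9 of 22 on the minus strand (chr5:89707433-89707818, intron included). Adamts2, Adamts3 and Adamts14, which encode the procollagen N-proteinases, shared 29 or 30 of 33 bases with each other, and Adamts2 shared 22 with Adamts9. Adam8 shared 29 of 33 bases with Adam12 and 29 with Adam19.

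Levels of different genes were compared as RPKM, that is CPM per kilobase of exon. In Gcontrol the 4 highest members were membrane-bound sheddases. Adam9 stood first with 53.6 ± 0.332 RPKM (SD, n = 3), followed by Adam10 with 27.4 ± 0.570, Adam17 with 19.4 ± 0.276 and Adam19 with 18.4 ± 1.33. The ranges of Adam17 (19.1 to 19.6 RPKM) and Adam19 (17.0 to 19.7 RPKM) overlapped, while Adam9 and Adam10 were each apart from the next gene in every group. The most abundant secreted members in Gcontrol were Adamtsl4 with 16.1 ± 0.592 RPKM, Adamts14 with 11.8 ± 1.23 and Adamts1 with 9.01 ± 0.498 (SD, n = 3 each). In the middle of the order, Adamtsl3, Adamts4, Adam8, Adamts9, Adam12 and Adamts10 lay between 2.25 and 3.71 RPKM, and each overlapped its neighbour in that order. Adamts2 (1.26 ± 0.0720 RPKM, SD, n = 3) and Adamts3 (0.691 ± 0.0858 RPKM, SD, n = 3) were in the lower part of the order in Gcontrol and were last in both derivatives. At the low end, Adam1a, Adamtsl5, Adam11, Adam22, Adamts8 and Adam5 each had a mean under 0.25 RPKM in Gcontrol.

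**Figure D1:**
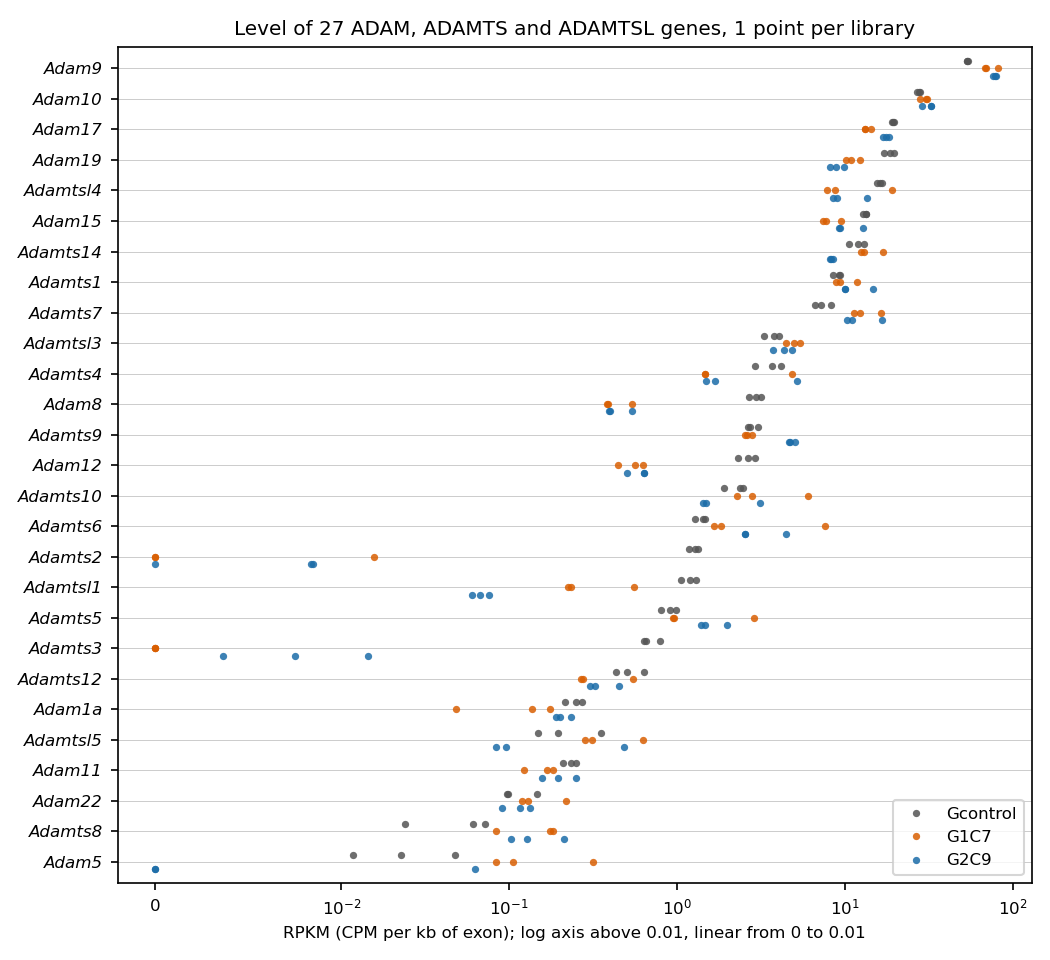
RPKM of the 27 described members, with 1 point per library and 3 libraries per group; the axis is logarithmic above 0.01 RPKM and linear from 0 to 0.01. Adam9 and Adam10 are the 2 highest members in every library, and the points of Adamts2 and Adamts3 in G1C7 and G2C9 lie at 0 or under 0.02 RPKM.

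Beside these levels, some facts of the whole series bear on the members. Mean Havcr2 RNA was 1.17, 0.781 and 0.644 CPM in Gcontrol, G1C7 and G2C9, and the gene was not called in either derivative (edgeR adjusted p = 0.59 and 0.45). The labels do not give the altered part of the gene, so this level does not check the knockout. Among markers of glioma and oligodendrocyte precursors, Olig1 and Olig2 were at 0 in all 9 libraries and Sox10 and Gfap stayed under 0.25 CPM on average, while Pdgfra, Nes, Sox2 and Vim were present. Cspg4 was at 43.6, 1.30 and 4.26 CPM in Gcontrol, G1C7 and G2C9 and was called lower in both derivatives (log2 -5.06 and -3.35, edgeR adjusted p = 3.4e-05 and 0.00016); its part in the changes of the members was not tested. Of 10 macrophage and microglia markers, C1qa, C1qb, Tyrobp and Adgre1 were at 0 in all libraries and 4 others had means of at most 0.109 CPM. Cd68 was at 4.14, 3.07 and 2.97 CPM without a call, and Csf1r at 1.12, 0.410 and 0.630 CPM was called lower in G1C7 (log2 -1.45, edgeR adjusted p = 0.014). The 8 testis markers each stayed under 1 CPM. In G1C7 replicate 2 and G2C9 replicate 3, 14% and 10.8% of all tested genes were over 2-fold higher than in the remaining libraries of the same group, beside 2.82% or less in any other library, and these are called below the libraries that stood apart. The summed level of 8 fibroblast and pericyte markers was also highest there, at 8782 and 8413 CPM, against 3601 to 4275 CPM in the other derivative libraries and 5818 to 6099 CPM in Gcontrol. Most of that sum came from Col1a1, Col1a2, Dcn and Acta2. Pdgfrb was instead lowest in G1C7 replicate 2 (324, 216 and 305 CPM in G1C7) and varied little in G2C9 (328, 316 and 335 CPM). Lum, Thy1 and Rgs5 had means of at most 0.158 CPM in each group. The part of these differences in the results below was not tested, except that results are also given without both libraries.

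Of the 31 members tested with edgeR's quasi-likelihood test, 12 were called in G1C7 against Gcontrol at a Benjamini-Hochberg adjusted p under 0.05, or 38.7%, beside 17.5% of all 15659 genes tested. The 12 comprised 2 higher members (8.77% of all genes were called higher) and 10 lower members (8.73% of all genes were called lower). In G2C9, 11 of 31 were called, or 35.5% beside 13.5% of all genes, with 3 higher (6.25% of all genes) and 8 lower (7.22% of all genes). Both comparisons share the Gcontrol libraries. Libraries of derivative and control did not overlap for 20 of 31 members in G1C7 (43% of all genes) and for 20 of 31 in G2C9 (43.3% of all genes). The median log2 fold change over the 31 members was -0.44 in G1C7 and -0.24 in G2C9, beside 0.02 and 0.01 over all genes tested. By family, 7 of 13 ADAM, 4 of 14 ADAMTS and 1 of 4 ADAMTSL genes were called in G1C7, and 4, 6 and 1 in G2C9.

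Adam9 and Adamts7 were higher in both derivatives, and Adam12, Adam19, Adam8, Adamts2, Adamts20, Adamts3 and Adamtsl1 were lower in both. Of these, Adamts2, Adamts3 and Adamts20 had 8 reads or fewer in each derivative, so they entered the test through their Gcontrol reads alone. A gene kept in that way can hardly be called higher, and all of them are part of the counts of lower members above. Adam15, Adam17 and Adam4 were called lower in G1C7 alone, Adamts9 was called higher and Adamts14 lower in G2C9 alone, and the other 17 tested members were not called against Gcontrol. Without G1C7 replicate 2 and G2C9 replicate 3, 22 and 26 of the 31 members were called, beside 54.3% and 53% of all genes. Both libraries were picked for removal after their values were seen, so calls gained below without both stand beside these shares.

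**Figure D2:**
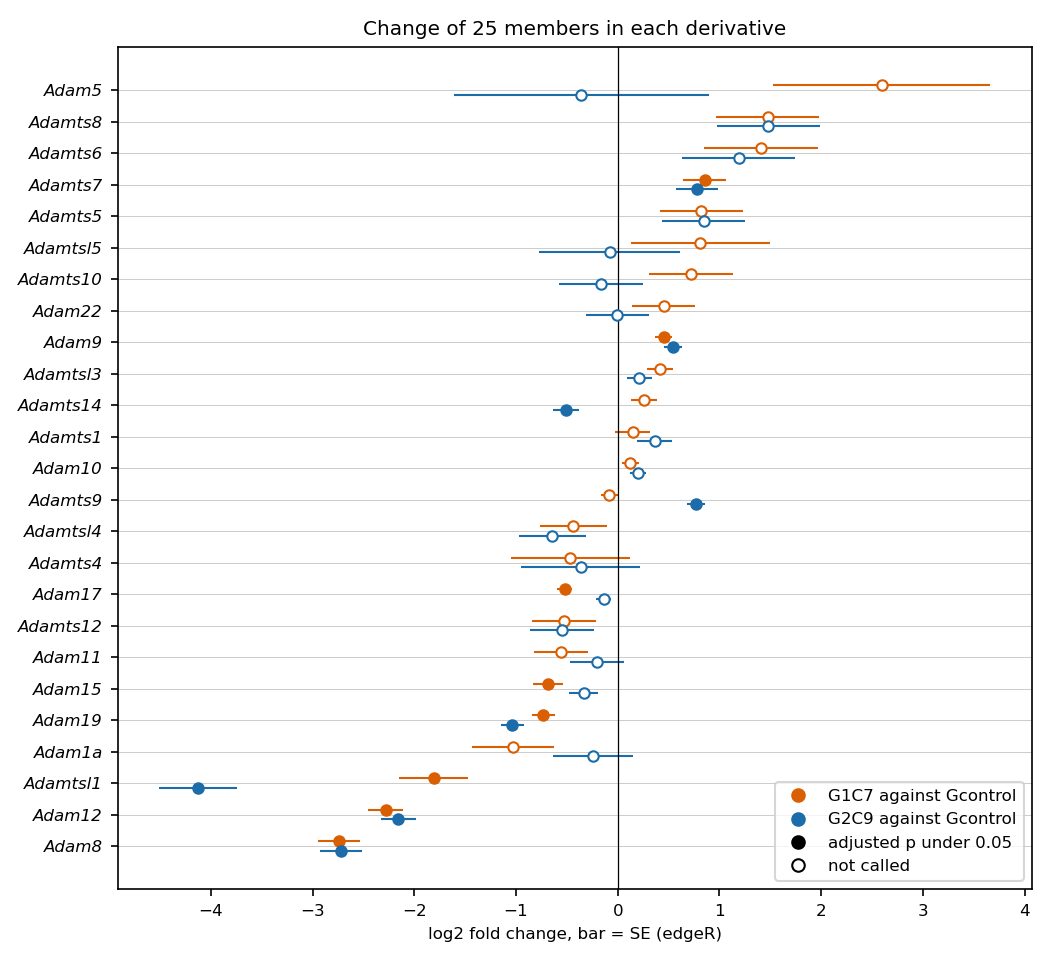
log2 fold change of 25 described members in G1C7 and G2C9 against Gcontrol, with the SE from edgeR as bars and filled points for an adjusted p under 0.05. Adam8, Adam12 and Adamtsl1 lie farthest to the left; Adamts2 and Adamts3, which had 8 reads or fewer in a derivative, are left out because a fitted fold change at such counts depends on the prior count.

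Among the broadly acting sheddases, Adam9, which cuts growth factor precursors, had 222, 220.3 and 219 CPM in Gcontrol. It had 286, 336 and 282 CPM in G1C7 and 315, 325 and 324 CPM in G2C9. All 6 derivative libraries were above all 3 control libraries, and Adam9 was 1.37-fold higher in G1C7 (log2 0.45, SE 0.09, edgeR adjusted p = 0.0097) and 1.46-fold higher in G2C9 (log2 0.54, SE 0.09, edgeR adjusted p = 0.0050). Without Gcontrol replicate 1 the G1C7 value was log2 0.45 with an adjusted p of 0.051 from edgeR. The 67 tested genes whose centres lie within 5 Mb of Adam9 on chromosome 8 had a median log2 fold change of 0.22 in G1C7 and 0.20 in G2C9.

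Adam10, the main sheddase of Notch receptors and of the amyloid precursor protein, was not called. Its levels were 137, 135 and 131 CPM in Gcontrol, 152, 138 and 150 CPM in G1C7 and 161, 160.3 and 142 CPM in G2C9. All derivative libraries were above the controls, and the derivatives overlapped each other. The log2 differences of 0.12 (SE 0.08, edgeR adjusted p = 0.34) and 0.20 (SE 0.08, edgeR adjusted p = 0.15) did not pass the test. Without both libraries that stood apart they were 0.17 and 0.26 and passed it (edgeR adjusted p = 0.0021 and 3.9e-05).

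Adam17, also known as TACE, releases tumor necrosis factor and ligands of the epidermal growth factor receptor. It had 139, 136 and 140.2 CPM in Gcontrol, 93.6, 102 and 94.5 CPM in G1C7 and 121, 125 and 131 CPM in G2C9. Every G1C7 library lay below every library of the other 2 groups. Adam17 was 1.43-fold lower in G1C7 than in Gcontrol (log2 -0.52, SE 0.07, edgeR adjusted p = 0.0023). It was not called in G2C9 (log2 -0.14, SE 0.07, edgeR adjusted p = 0.26). The 37 tested genes within 5 Mb of Adam17 on chromosome 12 had a median log2 fold change of -0.48 in G1C7 and 0.00 in G2C9. The Adam17 value in G1C7 thus lay near the median of its neighbours there.

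Adam15, a sheddase with a binding motif for integrins, was at 81.9, 79.2 and 81.8 CPM in Gcontrol, at 45.5, 58.1 and 47.5 CPM in G1C7 and at 56.9, 57.4 and 78.2 CPM in G2C9. All derivative libraries were below the controls, and the call was made in G1C7 only (log2 -0.69, SE 0.14, edgeR adjusted p = 0.014) and not in G2C9 (log2 -0.34, SE 0.14, edgeR adjusted p = 0.17). Without Gcontrol replicate 1 or replicate 3 the adjusted p in G1C7 was 0.053 or 0.052 (edgeR), and without G2C9 replicate 3 Adam15 passed the test in G2C9 as well (log2 -0.50, edgeR adjusted p = 0.024). The 158 tested genes within 5 Mb of Adam15 on chromosome 3 had a median of -0.41 in G1C7, where 43 of them were called lower and 3 higher, and of -0.17 in G2C9.

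**Figure D3:**
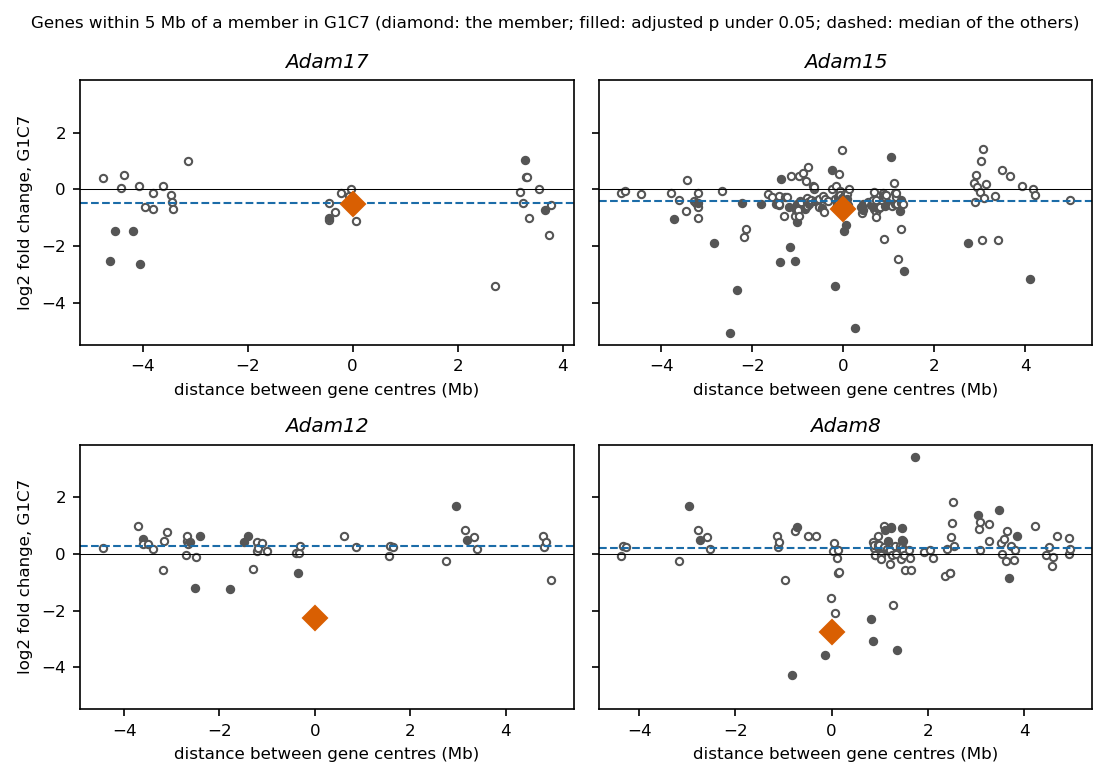
log2 fold change in G1C7 of every tested gene within 5 Mb of Adam17, Adam15, Adam12 and Adam8, by distance between gene centres; the diamond is the named member, filled symbols passed the test and the dashed line is the median of the other genes. The median lies at -0.48 and -0.41 for Adam17 and Adam15, which lie at -0.52 and -0.69, and at 0.29 and 0.20 for Adam12 and Adam8, which lie at -2.28 and -2.74. Around Adam8, 13 genes were called higher and 6 lower, among the latter Stk32c at -4.29 and Adgra1 at -3.56.

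Adam19, or meltrin beta, sheds neuregulins and acts in heart development. Its levels were 131, 121 and 140.1 CPM in Gcontrol, 76.8, 87.9 and 71.8 CPM in G1C7 and 63.3, 57.8 and 70.6 CPM in G2C9. No library of a derivative reached the controls, and Adam19 was 1.66-fold lower in G1C7 (log2 -0.73, SE 0.11, edgeR adjusted p = 0.0033) and 2.05-fold lower in G2C9 (log2 -1.04, SE 0.11, edgeR adjusted p = 0.00088). Both calls held without each of the 9 libraries in turn. The 58 tested genes within 5 Mb of it had medians of -0.12 and -0.37.

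Adam12, or meltrin alpha, is a protease of mesenchymal and tumor cells that cuts growth factor precursors and binding proteins of insulin-like growth factors. It had 28.0, 24.5 and 31.0 CPM in Gcontrol, 5.91, 6.61 and 4.67 CPM in G1C7 and 6.73, 6.69 and 5.31 CPM in G2C9. The derivative libraries lay in 1 narrow band far below the controls. The fold change was 4.86-fold lower in G1C7 (log2 -2.28, SE 0.17, edgeR adjusted p = 0.00016) and 4.46-fold lower in G2C9 (log2 -2.16, SE 0.17, edgeR adjusted p = 0.00024), and the 45 tested genes within 5 Mb had medians of 0.29 and 0.15.

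Adam8, a sheddase best known from leukocytes and from invasive tumors, lies on the same chromosome, 7, as Adam12. It had 13.7, 12.4 and 14.6 CPM in Gcontrol, 1.78, 2.51 and 1.81 CPM in G1C7 and 1.82, 1.86 and 2.5 CPM in G2C9. The derivatives overlapped each other and were far from the controls, 6.68-fold lower in G1C7 (log2 -2.74, SE 0.21, edgeR adjusted p = 0.00016) and 6.59-fold lower in G2C9 (log2 -2.72, SE 0.21, edgeR adjusted p = 0.00019). The 108 tested genes within 5 Mb had medians of 0.20 and 0.055. Of them, 13 were called higher and 6 lower in G1C7, and 2 higher and 6 lower in G2C9. The lower calls included Stk32c in both (log2 -4.29 and -7.81). They also included Adgra1 (-3.56), Urah (-3.07) and Zfp941 (-2.30) in G1C7, and Msx3 (-4.69) and Paox (-3.49) in G2C9. The part of such neighbours in the Adam8 difference was not tested. The summed level of the 10 macrophage and microglia markers, nearly all of it from Cd68 and Csf1r, was also lower in the derivatives, at 5.21 to 5.59 CPM in Gcontrol, 2.81 to 4.97 CPM in G1C7 and 3.12 to 4.70 CPM in G2C9; its part in the Adam8 difference was not tested. Of the same list, C1qa, C1qb, Tyrobp and Adgre1 were at 0 in all libraries and Ptprc had a mean under 0.04 CPM in each group. The antisense gene Gm16201, which overlaps Adam8, stood at log2 -1.55 and -1.59 and was not called (edgeR adjusted p = 0.25 and 0.27). Strand was not used in the counting, so reads that fell on both genes were left out and reads of Adam8 and Gm16201 cannot be told apart fully.

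The secreted procollagen N-proteinases remove the amino-terminal propeptide of fibrillar collagens, with ADAMTS2 the main enzyme for type I collagen and ADAMTS3 also needed to activate the lymphatic growth factor VEGF-C. Adamts2 had 11.9, 11.1 and 12.4 CPM in Gcontrol. In G1C7 it had 0, 0.146 and 0 CPM, and in G2C9 0.0792, 0 and 0.0781 CPM. In reads these were 1945 in Gcontrol, 8 in G1C7, all of them in replicate 2, and 8 in G2C9. The ratio of normalised reads was 240.5 with a 95% counting interval of 93.6 to 884 for Gcontrol over G1C7 (edgeR adjusted p = 0.0010), and 222 with an interval of 86.5 to 817 over G2C9 (edgeR adjusted p = 0.0012). Such intervals are made from read pairs and cover counting error only.

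Adamts3 had 3.53, 3.44 and 4.29 CPM in Gcontrol, no read in the 3 G1C7 libraries, and 0.0198, 0.0408 and 0.0781 CPM in G2C9. Against a floor of 3 read pairs over the group, the 620 reads of Gcontrol made Adamts3 at least 102-fold lower in G1C7 (edgeR adjusted p = 0.00024). The 7 reads in G2C9 gave a ratio of 80.9 with a 95% counting interval of 27.4 to 262 (edgeR adjusted p = 0.00047). Adamts2 lies on chromosome 11 and Adamts3 on chromosome 5. The median log2 fold changes of tested genes within 5 Mb were -0.17 and -0.37 around Adamts2 and -0.06 and 0.11 around Adamts3.

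Adamts14, the remaining gene of this subgroup, did not share this pattern. It had 61.9, 54.7 and 67.4 CPM in Gcontrol, 67.3, 87.7 and 64.8 CPM in G1C7 and 44.1, 42.5 and 42.9 CPM in G2C9. G1C7 overlapped the controls and was not called (log2 0.26, SE 0.13, edgeR adjusted p = 0.21), while every G2C9 library was below every other library (log2 -0.51 against Gcontrol, SE 0.13, edgeR adjusted p = 0.035). That call was lost without any 1 of the 6 Gcontrol and G2C9 libraries, with adjusted p between 0.052 and 0.13 (edgeR) and log2 values between -0.43 and -0.58. The 63 tested genes within 5 Mb of Adamts14 had medians of 0.36 and 0.33.

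The 250 bases before the RefSeq start of these 3 genes (build GRCm38.p6) are shown because 2 of the genes nearly lost their RNA and the other did not; each is given 5′ to 3′ on the gene's strand, with matches to the GC box GGGCGG or its complement CCGCCC in capitals.
Adamts2: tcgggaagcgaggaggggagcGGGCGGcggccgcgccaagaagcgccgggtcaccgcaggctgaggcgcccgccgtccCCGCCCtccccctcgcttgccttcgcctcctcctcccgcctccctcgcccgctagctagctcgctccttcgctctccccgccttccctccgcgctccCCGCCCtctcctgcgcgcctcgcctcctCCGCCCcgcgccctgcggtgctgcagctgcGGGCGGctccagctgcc
Adamts3: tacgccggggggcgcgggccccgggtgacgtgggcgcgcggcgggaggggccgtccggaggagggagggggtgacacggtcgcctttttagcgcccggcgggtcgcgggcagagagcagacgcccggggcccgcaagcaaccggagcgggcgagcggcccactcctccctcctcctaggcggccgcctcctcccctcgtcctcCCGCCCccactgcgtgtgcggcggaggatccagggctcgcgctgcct
Adamts14: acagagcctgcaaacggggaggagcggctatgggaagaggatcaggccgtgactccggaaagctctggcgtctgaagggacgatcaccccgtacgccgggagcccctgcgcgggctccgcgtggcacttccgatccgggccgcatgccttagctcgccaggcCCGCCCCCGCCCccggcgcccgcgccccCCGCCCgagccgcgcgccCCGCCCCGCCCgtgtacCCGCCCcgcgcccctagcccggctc
They lie at chr11:50601835-50602084 on the plus strand for Adamts2, and on the minus strand at chr5:89883335-89883584 for Adamts3 and chr10:61273420-61273669 for Adamts14. All 3 windows were rich in CpG, with 34, 35 and 35 CpG dinucleotides against a median of 6 over 32851 promoter windows of the same length. The GC box, searched on both strands, had 5, 1 and 6 matches, and 32.7% of all windows held at least 1. None of the 3 windows held an AP-1 site (TGANTCA, in 6.7% of all windows), a TATA box (TATAAA, 12.4%) or the E-box CACGTG (6.0%), each searched on both strands. RefSeq entries matched 16 of the 27 described members, of which 12 held a GC box, among them Adam10 and Adamtsl3, which were not called. A match describes these letters only.

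**Figure D4:**
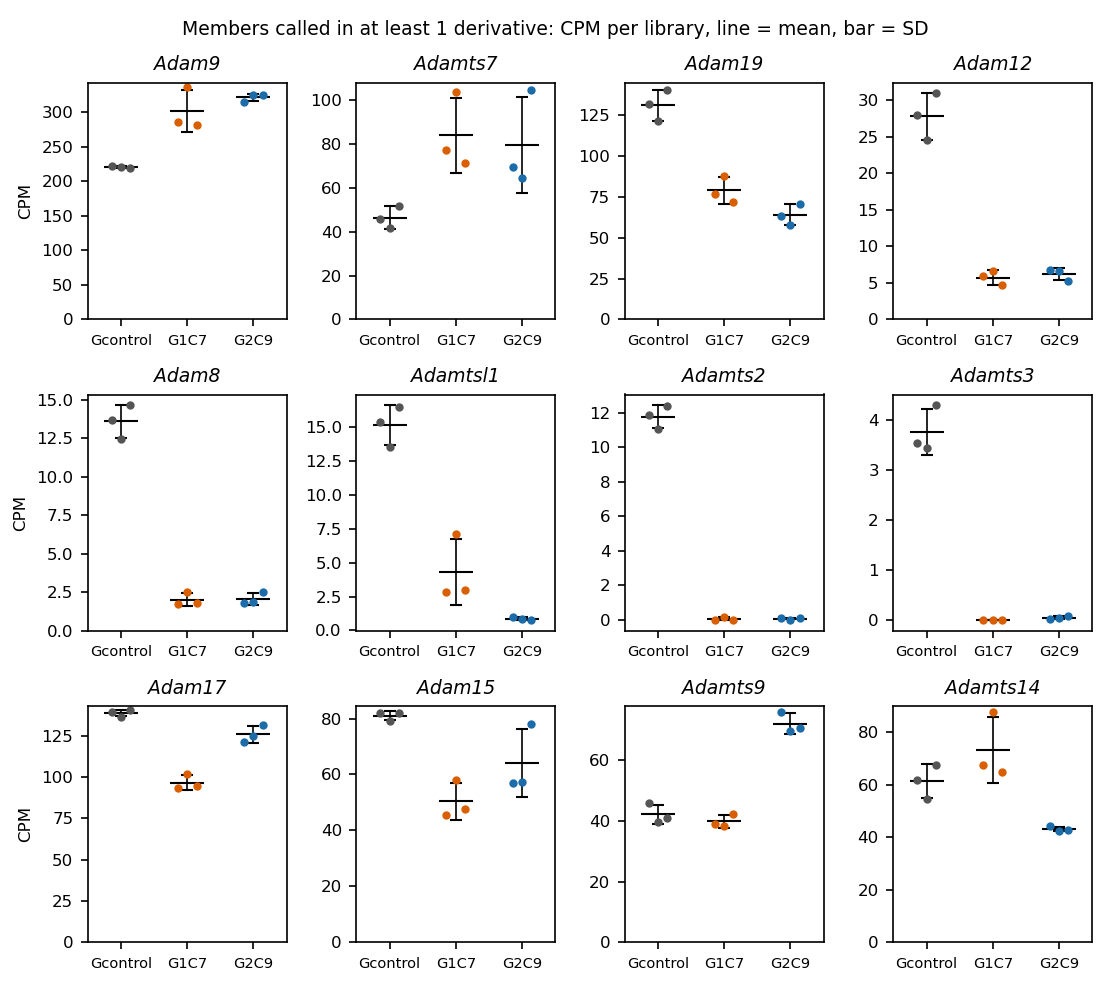
CPM in every library for 12 members called in at least 1 derivative, with the mean (line) and SD (bar) of 3 libraries per group. Adam8, Adam12, Adamts2 and Adamts3 are low in all 6 derivative libraries, whereas Adamts9 differs in G2C9 only and Adam17 is lowest in G1C7.

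The hyalectanases cut aggrecan, versican and related proteoglycans. Adamts9, whose product also acts inside the cell, had 45.7, 39.7 and 40.9 CPM in Gcontrol, 39.0, 38.2 and 42.1 CPM in G1C7 and 75.8, 69.4 and 70.6 CPM in G2C9. G1C7 overlapped the controls (log2 -0.08, SE 0.09, edgeR adjusted p = 0.57). G2C9 was 1.71-fold higher than Gcontrol (log2 0.77, SE 0.09, edgeR adjusted p = 0.0011), with no overlap, and this call held without each of the 9 libraries. Adamts20, the closest relative of Adamts9, had 38 reads over the Gcontrol libraries, 0 in G1C7 and 2 in G2C9. It was thus at least 6.26-fold lower in G1C7 (edgeR adjusted p = 0.014), and in G2C9 the ratio was 17.4 with a 95% counting interval of 2.76 to 721 (edgeR adjusted p = 0.038). The Adamts20 call in G1C7 was lost without Gcontrol replicate 1 (edgeR adjusted p = 0.054), and that in G2C9 without Gcontrol replicate 1 or G2C9 replicate 1 or 3 (0.12, 0.13 and 0.079). Adamts20 entered the test through its Gcontrol reads alone. Without Gcontrol replicate 2 or 3 it was too low for the test and had no call in either comparison.

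Adamts1, an abundant hyalectanase of many tissues, had 44.8 to 49.7 CPM in Gcontrol, 46.7 to 62.6 CPM in G1C7 and 53.1 to 78.1 CPM in G2C9 and was not called (log2 0.15 and 0.36, edgeR adjusted p = 0.61 and 0.21). Adamts4 and Adamts5 encode the main aggrecanases of cartilage. Adamts4 was at 17.6, 14.1 and 20.0 CPM in Gcontrol, at 7.03, 23.4 and 7.09 CPM in G1C7 and at 7.19, 8.10 and 24.9 CPM in G2C9. The other 2 libraries of each derivative were below the controls, and the 2 libraries that stood apart were above them. Neither comparison was called (log2 -0.47 and -0.37, edgeR adjusted p = 0.64 and 0.75). Without both of those libraries Adamts4 was at -1.29 in G1C7 and -1.17 in G2C9 and was called in both (edgeR adjusted p = 6.5e-07 and 2.0e-06). In that setting, chosen after the values were seen, 54.3% and 53% of all genes were called.

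Adamts5 had 10.7, 9.73 and 8.64 CPM in Gcontrol, 10.2, 30.9 and 10.3 CPM in G1C7 and 15.1, 15.9 and 21.3 CPM in G2C9. Only G1C7 replicate 2 stood far from its group, at 3.01 times the mean of the other 2 libraries. Adamts5 was not called (log2 0.82 and 0.85, edgeR adjusted p = 0.21 and 0.22), but without G1C7 replicate 2 the G2C9 value of 0.85 passed the test (edgeR adjusted p = 0.0040). The G1C7 value fell to log2 0.09 without that library (edgeR adjusted p = 0.74). Adamts8, of low level, had 0.111 to 0.332 CPM in Gcontrol, 0.382 to 0.842 CPM in G1C7 and 0.475 to 0.979 CPM in G2C9. Its libraries did not overlap with the controls, and it was not called (log2 1.47 and 1.48, edgeR adjusted p = 0.080 and 0.092). Without G1C7 replicate 2 both differences passed (log2 1.76 and 1.48, edgeR adjusted p = 0.028 and 0.041).

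Adamts7 and Adamts12 form a pair that cuts cartilage oligomeric matrix protein and carries a mucin-like region. Adamts7 had 45.5, 41.5 and 51.9 CPM in Gcontrol, 76.9, 103 and 71.0 CPM in G1C7 and 69.4, 64.6 and 105 CPM in G2C9. Every derivative library was above every control, 1.81-fold on the fitted scale in G1C7 (log2 0.86, SE 0.21, edgeR adjusted p = 0.025) and 1.72-fold in G2C9 (log2 0.78, SE 0.21, edgeR adjusted p = 0.042). The highest value in each derivative came from the library that stood apart. The G1C7 call was lost without any 1 of the 3 Gcontrol libraries (edgeR adjusted p between 0.062 and 0.10). The G2C9 call was lost in the same 3 cases and without G1C7 replicate 1, G2C9 replicate 1 or G2C9 replicate 3 (edgeR adjusted p between 0.057 and 0.15, log2 0.54 to 0.87). The gene overlaps Tbc1d2b on the opposite strand, which was also called higher in both derivatives (log2 0.60 and 0.55, edgeR adjusted p = 0.0069 and 0.012). Strand was not used in the counting, and the part of this overlap in the Adamts7 values was not tested. The 49 tested genes within 5 Mb had medians of 0.13 and 0.18. Adamts12 was not called, with 4.75 to 6.91 CPM in Gcontrol, 2.92 to 5.95 CPM in G1C7 and 3.31 to 4.90 CPM in G2C9 (log2 -0.53 and -0.55, edgeR adjusted p = 0.29 and 0.31). Without G1C7 replicate 2 its G1C7 value was -0.94 and passed (edgeR adjusted p = 0.019).

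Adamts6 and Adamts10 are a further pair, tied to fibrillin microfibrils. Adamts6 had 11.5, 10.0 and 11.1 CPM in Gcontrol, 14.2, 59.5 and 12.9 CPM in G1C7 and 19.8, 19.8 and 34.7 CPM in G2C9. All derivative libraries were above the controls, by a wide margin in G1C7 replicate 2, at 4.40 times the mean of the other 2. The log2 differences of 1.41 (SE 0.56, edgeR adjusted p = 0.12) and 1.19 (SE 0.56, edgeR adjusted p = 0.21) were not called. Without both libraries that stood apart they were 0.32 and 0.86 and were called (edgeR adjusted p = 0.0032 and 6.6e-08), and without G1C7 replicate 2 alone the G2C9 value of 1.19 was called (edgeR adjusted p = 0.0047). Adamts10 ranged from 15.7 to 20.5 CPM in Gcontrol, from 18.7 to 50.0 CPM in G1C7 and from 11.8 to 25.7 CPM in G2C9. Its highest values in the derivatives were again those of the libraries that stood apart, and neither difference was called (log2 0.72 and -0.16, edgeR adjusted p = 0.27 and 0.85).

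Among the ADAMTS-like genes, whose products bind the matrix without cutting it, Adamtsl1 (punctin) was the lower one in both derivatives. It had 15.3, 13.5 and 16.5 CPM in Gcontrol, 2.84, 7.08 and 3.00 CPM in G1C7 and 0.970, 0.857 and 0.761 CPM in G2C9. The 3 groups did not overlap, in the order Gcontrol, G1C7 and G2C9. Adamtsl1 was 3.51-fold lower in G1C7 (log2 -1.81, SE 0.34, edgeR adjusted p = 0.0082) and 17.5-fold lower in G2C9 (log2 -4.13, SE 0.38, edgeR adjusted p = 0.00046), and both calls held without each of the 9 libraries. The 30 tested genes within 5 Mb had medians of -0.06 and -0.08.

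Adamtsl4, which binds fibrillin and is linked to the anchoring of the eye lens, had 68.1, 65.0 and 69.9 CPM in Gcontrol, 36.5, 80.5 and 32.9 CPM in G1C7 and 35.6, 37.4 and 57.1 CPM in G2C9. All G2C9 libraries and 2 of 3 G1C7 libraries were below the controls, and G1C7 replicate 2 was above them. The log2 differences of -0.44 and -0.64 were not called (edgeR adjusted p = 0.41 and 0.25). Without G1C7 replicate 2, both were called (log2 -0.96 and -0.64, edgeR adjusted p = 0.0078 and 0.023). Adamtsl3 had 25.7 to 31.5 CPM in Gcontrol, 34.7 to 41.7 CPM in G1C7 and 29.0 to 37.3 CPM in G2C9, and its log2 values of 0.41 and 0.21 were not called (edgeR adjusted p = 0.055 and 0.32). Without G1C7 replicate 2 or without G2C9 replicate 3 the Adamtsl3 value in G1C7 passed (log2 0.48 and 0.41, edgeR adjusted p = 0.023 and 0.035). Adamtsl5 was low and variable, from 0.702 to 1.66 CPM in Gcontrol, 1.33 to 2.97 CPM in G1C7 and 0.396 to 2.26 CPM in G2C9, with no call (log2 0.81 and -0.08). The G2C9 value was -1.36 without G2C9 replicate 3 (edgeR adjusted p = 0.12), and -1.37 without both libraries that stood apart, where it was called (edgeR adjusted p = 0.0044). The G1C7 value was 0.36 without G1C7 replicate 2 (edgeR adjusted p = 0.75).

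**Figure D5:**
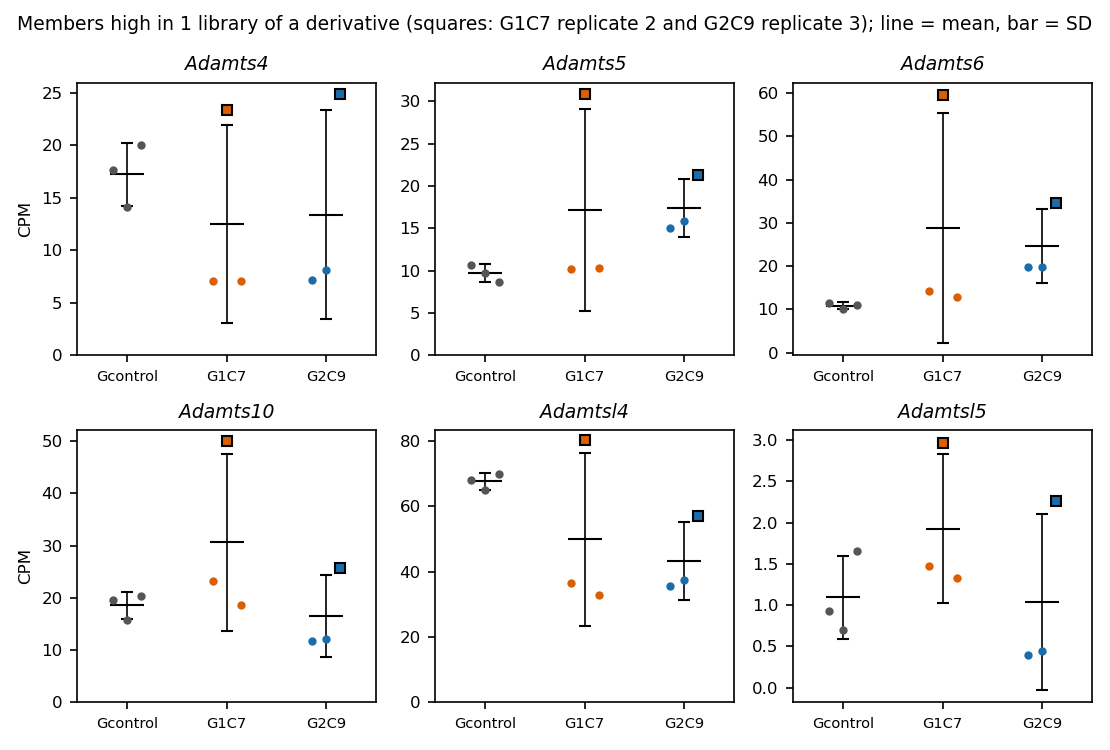
CPM per library of Adamts4, Adamts5, Adamts6, Adamts10, Adamtsl4 and Adamtsl5, chosen after their values were seen because they were high in 1 library, with the mean (line) and SD (bar) of 3 libraries per group; squares mark G1C7 replicate 2 and G2C9 replicate 3. The square is the highest value of its group for these 6 genes, which was not so for others such as Adamtsl3 and Adamts8, and for Adamts4 the other 2 libraries of each derivative lie below all 3 controls.

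Of the 27 described members, 10 were over 2-fold higher in G1C7 replicate 2 than in the other 2 libraries of its group, and 6 were so in G2C9 replicate 3, from mean log2 CPM with a prior count of 1. Over all tested genes the shares on that scale were 14% and 10.8%. By the ratio of plain CPM to the mean of the other 2 libraries, 10 and 5 members were over 2, and 6 and 8 were under 1. For Adamts4 the ratios were 3.31 and 3.25, for Adamts10 2.39 and 2.14, and for Adamtsl5 2.11 and 5.36. Adam9, Adam10, Adam17, Adam19 and Adamts9 stayed between 0.886 and 1.18 times the others in both libraries, and Adamtsl3 (0.866 and 0.816) and Adamts8 (0.465 and 0.805) were lower there. Without both libraries, calls were also gained by Adam1a (log2 -0.65) in G1C7 and by Adam17 (-0.17), Adamts1 (0.16), Adamtsl3 (0.31), Adamts10 (-0.63) and Adamts12 (-0.74) in G2C9. Adam5 gained a call as higher in G1C7 and as lower in G2C9, at fewer than 1 CPM in every library.

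The ADAM genes without the zinc-binding stretch act as adhesion and receptor proteins. Adam22, a neuronal receptor for LGI1, had 1.39 to 2.11 CPM in Gcontrol, 1.72 to 3.13 CPM in G1C7 and 1.31 to 1.91 CPM in G2C9. Adam11, also a neuronal member, had 1.18 to 1.42, 0.692 to 1.03 and 0.891 to 1.43 CPM in the same order. Neither was called in a derivative (edgeR adjusted p from 0.19 to 1.0), although the G1C7 libraries of Adam11 were all below the controls. Adam23 was seen only in Gcontrol, with at most 0.106 CPM, and was too low for the test.

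Many ADAM genes are expressed mainly in the testis and act in sperm maturation and fertilisation. Adam1a had 1.61 to 2.05 CPM in Gcontrol, 0.364 to 1.32 CPM in G1C7 and 1.43 to 1.74 CPM in G2C9. Its G1C7 libraries lay below the controls but were not called (log2 -1.03, SE 0.40, edgeR adjusted p = 0.12), and its span overlaps Tmem116 and Mapkapk5. Adam5 had 0.0369 to 0.148 CPM in Gcontrol, 0.262 to 0.983 CPM in G1C7 and 0 to 0.195 CPM in G2C9, without a call (edgeR adjusted p = 0.14 and 0.90). Adam4, under the 0.5 CPM threshold, had 0.282 to 0.554 CPM in Gcontrol and 0.0730 to 0.218 CPM in G1C7. It was called lower in G1C7 (log2 -1.64, SE 0.48, edgeR adjusted p = 0.048), a call that was kept without G1C7 replicate 2 and lost without each of the other 8 libraries (edgeR adjusted p between 0.056 and 0.16). The span of Adam4 overlaps Gm20498 and Cox16 on the same strand, and Cox16 was also lower in G1C7 (log2 -1.62, edgeR adjusted p = 0.0013). The part of this overlap in the Adam4 value was not tested. Adam32, at a level similar to that of Adam4, was not called.

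Of the members under the threshold, Adamts18 had 39 reads over the Gcontrol libraries, 4 in G1C7 and 3 in G2C9. The ratios of 9.64 (95% counting interval 2.40 to 87.3) and 11.9 (2.22 to 80.6) had edgeR adjusted p of 0.055 and 0.057 and were not called. Without G1C7 replicate 2 both passed (edgeR adjusted p = 0.0092 and 0.014). The 13 members with no read in any library were Adam24, Adam25, Adam20, Adam39, Adam26b, Adam26a, Adam34, Adam29, Adam6b, Adam6a, Adam7, Adam28 and Adamts19, most of them known as testis genes. A count of 0 in a library allows up to 3 read pairs, or 0.106 to 0.122 CPM depending on the library.

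The derivatives were also compared with each other. Of the 31 tested members, 4 were called, or 12.9% beside 3.36% of all genes. Of these, 2 were higher in G1C7 (1.71% of all genes) and 2 lower (1.65% of all genes), and libraries did not overlap for 9 members (18.2% of all genes). Adamtsl1 was 4.98-fold higher in G1C7 than in G2C9 (log2 2.32, SE 0.36, edgeR adjusted p = 0.012), and Adamts14 1.70-fold higher (log2 0.76, SE 0.13, edgeR adjusted p = 0.017). Adamts9 was 1.81-fold lower in G1C7 (log2 -0.86, SE 0.09, edgeR adjusted p = 0.0017) and Adam17 1.30-fold lower (log2 -0.38, SE 0.07, edgeR adjusted p = 0.027). The Adamts9 call held without each of the 9 libraries. The call of Adamtsl1 was lost without G2C9 replicate 2 (0.061), that of Adamts14 without G2C9 replicate 1 or 2 (0.063 and 0.079), and that of Adam17 without any library except G1C7 replicate 2 and G2C9 replicate 3 (0.063 to 0.12), all as edgeR adjusted p.
The differences of Adam8 (log2 -0.02, SE 0.20), Adam12 (-0.12, SE 0.17), Adam9 (-0.09, SE 0.09) and Adam15 (-0.35, SE 0.14) were not called. Without both libraries that stood apart, Adam9 (log2 -0.17, edgeR adjusted p = 0.0048) and Adam15 (log2 -0.30, edgeR adjusted p = 0.00030) were called between the derivatives.

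Genes that act with the members were read from lists chosen with earlier results of these data known; of all genes tested, 8.77% were called higher and 8.73% lower in G1C7 (17.5% in all), and 6.25% and 7.22% in G2C9 (13.5% in all), with medians of 0.02 and 0.01. Among 10 tested genes of ADAM maturation and trafficking, 3 were called higher and 1 lower in G1C7, and 0 and 2 in G2C9 (medians 0.04 and -0.10). Tspan15, a tetraspanin that steers ADAM10, had means of 14.9, 33.4 and 18.2 CPM in Gcontrol, G1C7 and G2C9 and was called in G1C7 (log2 1.16, edgeR adjusted p = 0.00046). Tspan14, another ADAM10 tetraspanin, was lower in G2C9 (43.0 to 29.8 CPM, log2 -0.53, edgeR adjusted p = 0.0024). Pcsk6, a proprotein convertase, fell from 1.44 CPM in Gcontrol to 0.0122 and 0.0136 CPM (edgeR adjusted p = 0.0022 and 0.0029). Furin, the convertase that activates many ADAM and ADAMTS proteins, was at 144, 145 and 148 CPM with no call. Tspan17 (log2 1.11, edgeR adjusted p = 0.032) and Rhbdf1 (log2 0.35, edgeR adjusted p = 0.048), which guides ADAM17 to the cell surface, were the other genes called higher in G1C7.

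Of 6 tested inhibitors and clearance genes, 1 was called higher and 2 lower in G1C7 and 3 lower in G2C9 (medians 0.17 and -0.49). The values that follow are those of the lower calls, and the value of the higher call in G1C7 is not given. Timp1, a tissue inhibitor of metalloproteinases, was at 295, 183 and 198 CPM in the same order (log2 -0.68 and -0.57, edgeR adjusted p = 0.0067 and 0.017). Timp2 was at 1171, 887 and 877 CPM (log2 -0.40 and -0.42, edgeR adjusted p = 0.013 in both). Timp3, the inhibitor with the widest action on ADAM and ADAMTS proteases, was called lower in G2C9 only, from 468 to 317 CPM (log2 -0.56, edgeR adjusted p = 0.049).

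Of 34 tested substrates of ADAM10 and ADAM17, 4 were called higher and 5 lower in G1C7 and 6 higher and 4 lower in G2C9 (medians -0.10 and 0.07). Tgfa, a growth factor released by ADAM17, was at 7.95, 3.01 and 0.757 CPM (log2 -1.40 and -3.39, edgeR adjusted p = 0.0024 and 0.00011). Cxcl16, a membrane chemokine, was at 19.6, 7.18 and 5.02 CPM (log2 -1.45 and -1.96, edgeR adjusted p = 0.011 and 0.0036). Dll1 and Btc, a Notch ligand and a growth factor, were called higher in both derivatives (log2 1.19 and 1.30 for Dll1, 1.17 and 1.01 for Btc). Cdh5, an endothelial cadherin, was higher in G2C9, from 0.729 to 3.55 CPM (log2 2.28, edgeR adjusted p = 0.00074). Of the other 6 endothelial markers, Emcn and Cldn5 were at 0, Kdr, Tek and Vwf had means of at most 0.274 CPM, and Pecam1 was at 0.187 CPM in Gcontrol and 0.456 CPM in G2C9 without a call (log2 1.27, edgeR adjusted p = 0.28). Notch1 was called lower in G2C9 only, at 4.40, 3.89 and 0.824 CPM (log2 -2.41, edgeR adjusted p = 0.0021). None of the 7 tested genes of gamma-secretase, the enzyme that cuts the stubs left by shedding, was called with edgeR. At an unadjusted p under 0.05 there were 2 in G1C7 and 0 in G2C9, and DESeq2 and limma-voom each called 1 in G1C7 and 0 in G2C9.

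Of 11 tested matrix substrates of ADAMTS proteases, 1 was called lower in G1C7, and 1 higher and 1 lower in G2C9 (medians -0.30 and -0.10). Acan, which encodes the proteoglycan aggrecan cut by Adamts4 and Adamts5, fell from 81.6 CPM in Gcontrol to 3.61 in G1C7 and 1.08 in G2C9 (log2 -4.50 and -6.24, edgeR adjusted p = 0.00015 and 5.9e-05). Vcan, for versican, was called higher in G2C9 (236 to 423 CPM, log2 0.84, edgeR adjusted p = 0.039). The type I collagen genes Col1a1 and Col1a2, whose products are substrates of Adamts2, were abundant and not called, at 2711, 2091 and 1728 CPM for Col1a1. By library, Col1a1 had 2697, 2581 and 2856 CPM in Gcontrol, 1423, 3521 and 1328 in G1C7 and 1344, 1282 and 2559 in G2C9. Col1a2 had 1571 to 1632 CPM in Gcontrol, 981, 2704 and 918 in G1C7 and 923, 902 and 2075 in G2C9. For both genes the highest value of each derivative came from the library that stood apart, and its other libraries were below the controls. Among 8 tested partners of ADAMTS and ADAMTSL proteins, 1 was called higher and 2 lower in G1C7 and 2 higher and 1 lower in G2C9 (medians -0.145 and -0.17). Fbn2, a fibrillin, was lower in both derivatives (6.05, 0.990 and 0.145 CPM), and Ltbp1, which holds latent transforming growth factor beta in the matrix, was higher in both (818, 1686 and 1104 CPM). Ccbe1, the partner of Adamts3 in activating VEGF-C, was called higher in G2C9 (83.9 to 130 CPM, log2 0.63, edgeR adjusted p = 0.0033). Hapln4, a link protein, was called lower in G1C7 (2.55 to 0.237 CPM).

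Of 8 tested integrins and LGI genes, whose products bind ADAM proteins, 1 was called higher and 3 lower in G1C7 and 1 in each direction in G2C9 (medians -1.325 and -0.89). Itga9, whose product binds several ADAM disintegrin domains, was lower in both derivatives, at 0.579, 0.111 and 0.0268 CPM, and Itgav was higher in both, at 266, 328 and 356 CPM. Lgi2 was called lower in G1C7 only (17.9 to 1.40 CPM, log2 -3.68, edgeR adjusted p = 0.0048), with 4.95 CPM in G2C9. These data are RNA levels of whole cultures, so fewer cells with a transcript and less of it per cell cannot be told apart, and protease activity was not measured.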

How the data were processed

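The deposited files hold whole-number counts of reads per gene, made by the authors with featureCounts 1.6.0 on GRCm38 and GENCODE release M25, per the file headers; the submitters' processing notes also name FastQC 0.11.8, STAR 2.6.1c, edgeR and limma. The headers carry no option for pairs, strand, multi-mapping or overlaps, so each mate was 1 count, both strands were pooled, and multi-mapping or multi-gene reads were left out. Members with close copies or antisense partners can therefore be undercounted or mixed. Symbols came from GENCODE vM21 by gene ID (55141 of 55401).

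The 9 libraries were grouped by title. CPM and RPKM used TMM factors (0.978 to 1.03). Genes passing filterByExpr (15659) entered a quasi-likelihood model in edgeR 4.0.16 (robust, R 4.3.3, 6 residual degrees of freedom) over all libraries, with Benjamini-Hochberg adjustment over all genes. Each SE was derived from the fold change and its F statistic. A floor is 3 read pairs over a group. Intervals (95%) count read pairs. Named are all described members, tested members below 0.5 CPM, and up to 2 called genes per direction of each related list, or abundant ones; Furin, Col1a1, Tspan17, Rhbdf1 and Itgav were picked after their values were seen. Members and lists were chosen with earlier results of these data known.

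Alternatives were RLE factors, no filter, DESeq2 1.42.0, limma-voom (limma 3.58.1), only the 2 groups compared, the replicate block and each library left out. Leaving out both libraries that stood apart was chosen after seeing the data. The procedure was tested on simulated data.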

Additional observations from a re-analysis of the deposited data

Results flagged for a closer look

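For 4 members the derivatives differed from each other by the edgeR test of that difference over all libraries. Only Adamts9 kept this call with only the 2 groups compared (edgeR adjusted p = 0.030) and with the replicate block (0.016). For Adam17, Adamts14 and Adamtsl1 the edgeR adjusted p was 0.18, 0.099 and 0.105 with only the 2 groups compared. With the replicate block it was 0.12, 0.089 and 0.056. The log2 difference of G1C7 against G2C9 was 2.32 for Adamtsl1, 0.76 for Adamts14, -0.86 for Adamts9 and -0.38 for Adam17. Libraries of the derivatives did not overlap for any of these 4. Adamts9 was called in G2C9 and not in G1C7, Adam17 in G1C7 and not in G2C9, and Adamts14 in G2C9 only, while Adamtsl1 was called in both with a larger change in G2C9. The 37 tested genes within 5 Mb of Adam17 had a median log2 difference of -0.19 between the derivatives, and the 60 around Adamts9 one of -0.15. Single outlying values within groups of 3 libraries were not used to flag results here, and the libraries that stood apart are described above.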

How the results depend on the processing

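Of 27 called results, 16 were called under every alternative run, among them Adam8, Adam12, Adam19, Adamts2, Adamts3 and Adamtsl1 in both derivatives, and none changed sign. With each library left out in turn, members called ranged from 7 to 17 of 31 in G1C7, 8 to 16 in G2C9 and 1 to 5 between the derivatives. The share of all genes called ranged with them, from 7.32% to 25.8%, 5.44% to 25.6% and 1.14% to 8.01%. Adamts20 was not tested without Gcontrol replicate 2 or 3, which left 30 members there. The G1C7 count of 7 came without Gcontrol replicate 1, and counts of 2 and 1 between the derivatives came without G2C9 replicates 1 and 2. With G1C7 replicate 2 and G2C9 replicate 3 both removed, counts were 22, 26 and 12, beside 54.3%, 53% and 27.3% of all genes. With only the 2 groups compared, 1 member was called between the derivatives, beside 0.541% of all genes. With the replicate block, counts were 9, 8 and 1, beside 9.78%, 7.11% and 1.05% of all genes, where they were 12, 11 and 4 without it. Adamts9 kept its call between the derivatives with the block (edgeR adjusted p = 0.016). Same-numbered libraries did not deviate together (correlations -0.52 to 0.37, 1 of 9 above 0.1). The 2 libraries that stood apart carry different numbers and deviated together (correlation 0.65), so these correlations cannot decide whether the numbers pair libraries. DESeq2 called 17, 13 and 4 members, beside 24.8%, 20.5% and 8.15% of all genes.

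The sign changed only for uncalled values. Against Gcontrol in G2C9, Adam22 was 0.01 with limma-voom, and with each library left out the range was -0.62 to 0.027 for Adamts10, -0.13 to 0.22 for Adam22, -1.36 to 0.36 for Adamtsl5 and -5.22 to 0.27 for Adam5. Between the derivatives it was -0.10 to 0.31 for Adamts7 and -0.20 to 0.14 for Adam8. The cause was not tested. With 3 libraries a group and 3 read pairs worth 0.106 to 0.122 CPM, differences of members under 0.5 CPM were at the limit of detection.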

Other observations

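Some members too low for the test still had values that stood out. Adamts16, a little-studied secreted protease, had 0.123 to 0.148 CPM in Gcontrol and 0.0396 to 0.234 CPM in G2C9, and 0.564 CPM in G1C7 replicate 2 beside 0 and 0.11 CPM in the other G1C7 libraries. Adam33, linked to airway remodelling, had no read in Gcontrol, up to 0.112 CPM in G1C7 and up to 0.117 CPM in G2C9. Adam23, a neuronal member, had reads in all 3 Gcontrol libraries (0.0370 to 0.106 CPM) and none in the 6 derivative libraries. Apart from the 0.564 CPM of Adamts16, these values were at most 0.234 CPM, beside 0.106 to 0.122 CPM for 3 read pairs in a library, and no comparison was made.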
